A study of Mus musculus with 4 samples.

Results

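Branched-chain amino acid breakdown is described here through 10 genes of the 55401 in the deposited mouse heart table. They were taken by symbol, and each matched 1 row. They encode the transaminase (Bcat2), the subunits of the branched-chain keto acid dehydrogenase complex (Bckdha, Bckdhb and Dbt), its kinase and phosphatase (Bckdk and Ppm1k), enzymes of the leucine branch (Ivd, Mccc1 and Mccc2) and an enzyme of the valine branch (Hibch). Poly(A) RNA was sequenced from hearts on day 28 after surgery. The Sham group (2 libraries) had a thoracotomy with no ligation, and the MI group (2 libraries) had the ligation operation that causes a myocardial infarction. Neither strain, sex, age nor genotype was given for either group, and the sampled region is labelled only as heart, although the design text contrasts infarcted tissue with normal left ventricle. Cyanidin, the plant pigment of the title, is not named in the label of any of these libraries, and hearts treated with it were not analysed here.

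Leucine, isoleucine and valine are first transaminated and then oxidatively decarboxylated inside mitochondria, and the decarboxylation commits them to breakdown. The kinase switches the complex off by phosphorylating the decarboxylase subunit, and the phosphatase switches it back on. Past the complex the 3 amino acids follow separate branches that end in acetyl-CoA, acetoacetate or propionyl-CoA, which heart muscle can burn in the citrate cycle. Reduced expression of these enzymes is a known feature of failing hearts.

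All 10 genes passed the filter on low counts, and all 10 had a negative log2 difference (MI minus Sham) on CPM (counts relative to library size, scaled by trimmed means, TMM), from -0.71 for Ivd to -0.18 for Bckdk. The median was -0.34, against 0.003 over the 18475 genes tested, of which 49.8% were negative. After adjustment over all genes, 0 of the 10 had a p under 0.05 by the quasi-likelihood test of edgeR (0% of all genes), and 0 had by DESeq2 (4.07% of genes). At an unadjusted p under 0.05 in edgeR, 3 were lower in MI (Mccc2, Bckdhb and Dbt) and 0 higher, beside 4.51% of all genes lower and 7.12% higher. DESeq2 also gave 3 lower members at an unadjusted p, where 5.53% of all genes were lower. The edgeR count was 0 without MI replicate 1 (1.95% of all genes lower) and 2 without MI replicate 2 (2.06%). It was 2 without Sham replicate 1 (6.1%) and 4 without Sham replicate 2 (5.86%). In CPM the MI values were both under the lower Sham value for 7 of the 10 genes, a pattern shown by 21.9% of all genes. The reverse pattern, shown by 24.9% of all genes, occurred for 0 of the 10. Neither result was particular to these genes. Negative differences were found for 12 of 12 fatty acid oxidation genes, 16 of 17 citrate cycle genes and 9 of 10 cardiomyocyte markers, in lists described below. Both MI values were under the lower Sham value in CPM for 11, 14 and 6 of these, and the reverse held for 0, 0 and 0.

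The size of these differences depended on the scale. On log2(FPKM + 1), where FPKM is the authors' abundance per gene length and library size, the median of the 10 genes was -0.10 and that of all genes 0.10, so the members lay under the other genes on both scales. With 0.1 in place of 1 added to FPKM the medians were -0.10 and 0.20, so the distance between them depended on the added value. On log2(FPKM + 1), 9 of the 10 were negative (29.3% of all genes) and Bckdk was at 0.04. On that scale 1 member (Mccc2) was lower at an unadjusted p under 0.05 in limma, as were 1.82% of all genes. In FPKM the MI values were both under the lower Sham value for 4 members (Bckdha, Bckdhb, Dbt and Mccc2), beside 8.89% of all genes. They were both over the higher Sham value for 0 members, beside 39% of all genes. For the 12 fatty acid oxidation genes, 17 citrate cycle genes and 10 cardiomyocyte markers, the FPKM counts were 10, 11 and 4 under and 0, 2 and 1 over. Transcripts of the mitochondrial genome made up 34% and 32.6% of each Sham library, against 27.3% and 30.9% of each MI library. When they were left out and libraries were scaled to the remaining total without TMM, the member median was -0.19. That of all genes moved to 0.14, and all 10 members were still negative. Both the transcripts kept and the scaling changed in this setting, so their effects were not separated. Of all genes with an unadjusted p under 0.05 in edgeR, those higher in MI were 61.2% with TMM and 82% with neither mitochondrial transcripts nor TMM. In limma on log2(FPKM + 1) they were 86.9%.

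Libraries differed in ways the labels do not state. Total estimated counts ran from 66624106 to 75979320, and every member had between 2160 and 18694 counts in each library, at an apparent 4 counts per sequenced fragment. All 10 cardiomyocyte markers were detected in each library, with summed levels of 19110 and 19120 FPKM in Sham and 17860 and 18360 in MI. All 7 adipocyte markers and all 7 atrial markers were highest in Sham replicate 2, where they summed to 158.3 and 5051 FPKM. The adipocyte sum was 0.05, 0.01 and 0.43 in Sham replicate 1, MI replicate 1 and MI replicate 2, with 6, 6 and 4 of the 7 listed at 0. The atrial sum was 153.6, 2644 and 1863 in the same order, with Nppa, which stressed ventricles also express, as the most abundant. Nppa alone had 151.42, 2631.97 and 1855.23 FPKM in these libraries, so little of their sums came from the other atrial markers. All 6 lung epithelial markers were highest in MI replicate 1, at 283.4 FPKM in sum, against 0.12 and 0.86 in the Sham libraries and 0.17 in MI replicate 2. The 7 fibroblast markers summed to 82.54 and 121.6 FPKM in Sham and to 445.4 and 263.4 in MI. What these tissues contributed to the values of the 10 genes was not tested. In bulk tissue, fewer heart muscle cells and less RNA per cell cannot be told apart.

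**Figure D1:**
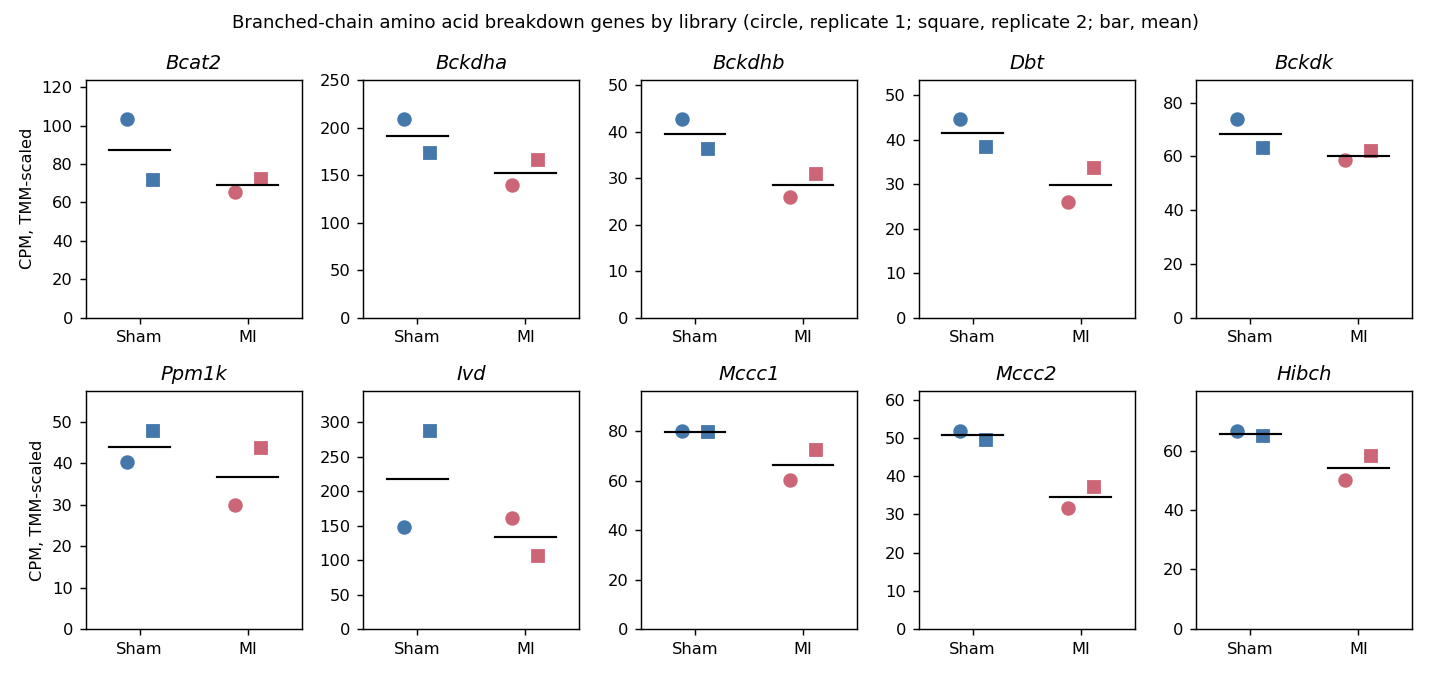
Each panel gives 1 gene in TMM-scaled CPM (vertical axis, from 0) for the 2 Sham (blue) and 2 MI (red) libraries, with replicate 1 as circles, replicate 2 as squares and the group mean as a bar. The MI points lie below the Sham points in 7 panels, while those of Bcat2, Ppm1k and Ivd overlap.

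Bcat2, the mitochondrial transaminase that starts the pathway (ENSMUSG00000030826, chromosome 7, 45570153 to 45589711, GRCm38), measured 103.3 and 71.5 CPM (Sham) against 65.6 and 72.2 CPM (MI). The high value came from Sham replicate 1 alone, and Sham replicate 2 lay between the MI libraries. The log2 difference was -0.34 ± 0.21 (SE; edgeR adjusted p = 0.573), and it was -0.05 without Sham replicate 1. Bcat1, the cytosolic form of the enzyme, was low at 0.18 and 0.28 FPKM in Sham and 0.3 and 0.19 in MI, so Bcat2 supplied nearly all of the transaminase transcript, at 16.4 to 21.36 FPKM. An antisense gene, 0610005C13Rik, shares 15.9% of the exon bases of Bcat2, at no more than 0.2 FPKM in any library.

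The subunits of the dehydrogenase complex were present at unequal levels. Bckdha encodes the alpha subunit of the decarboxylase, which carries the regulatory phosphorylation site (ENSMUSG00000060376, chromosome 7, 25629946 to 25658981). It was the most abundant of the 10 genes per length, at 88.58 and 81.76 FPKM in Sham and 76.72 and 81.45 in MI. In CPM the values were 208.6 and 173.4 against 139.1 and 165.5, a log2 difference of -0.33 ± 0.17 (edgeR adjusted p = 0.516). The groups did not overlap, but MI replicate 2 and Sham replicate 2 lay close together on both scales. B3gnt8, on the opposite strand, shares 61.7% of the exon bases of Bckdha. It was at 1.03 to 1.97 FPKM, and whether strand was used in counting is not given in the sources used here, so a small part of the Bckdha value is uncertain.

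Bckdhb, the beta subunit of the decarboxylase (ENSMUSG00000032263, chromosome 9, 83925145 to 84124240), measured 42.6 and 36.2 CPM (Sham) against 25.9 and 31 CPM (MI). Every MI value was below every Sham value, also in FPKM (19.04 and 17.92 against 15.01 and 16.03). The log2 difference was -0.47 ± 0.17 (edgeR adjusted p = 0.403). Dbt, the transacylase that forms the lipoyl-bearing core of the complex (ENSMUSG00000000340, chromosome 3, 116513070 to 116549981), measured 44.6 and 38.4 CPM (Sham) against 25.9 and 33.5 CPM (MI). Its log2 difference of -0.48 ± 0.18 was close to that of Bckdhb (edgeR adjusted p = 0.428), and the groups were again separate on both scales. Dld, the dehydrogenase that the complex shares with the pyruvate and oxoglutarate dehydrogenases, had -0.32 ± 0.15 (edgeR adjusted p = 0.489), at 63.85 to 71.44 FPKM.

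Ratios between subunits within a library do not depend on how libraries are scaled. In FPKM, Bckdha exceeded Bckdhb by 4.65 and 4.56 times in the Sham libraries and by 5.11 and 5.08 times in MI. The gap between groups, 0.15 on the log2 scale, was larger than the gap between replicates, which was 0.03 in Sham and 0.01 in MI in size. Bckdha exceeded Dbt by 8.25 and 7.98 times in Sham and by 9.47 and 8.7 times in MI, again without overlap. Bckdhb and Dbt kept ratios of 1.77 and 1.75 in Sham and of 1.85 and 1.71 in MI, which overlap. With 2 libraries a group no exact 2-sided permutation test of a ratio can give a p under 0.33, so the ratios carry no test. Relative to the alpha subunit, then, the measured levels of both Bckdhb and Dbt were a little smaller in the MI libraries.

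The kinase and the phosphatase had the smallest differences of the complex genes. Bckdk, which inactivates the complex (ENSMUSG00000030802, chromosome 7, 127904082 to 127910221), measured 73.8 and 63.1 CPM (Sham) against 58.5 and 62.1 CPM (MI). The lower Sham library and the higher MI library were almost level. The log2 difference was -0.18 ± 0.14 (95% interval -0.53 to 0.17; edgeR adjusted p = 0.641), and FPKM gave 16.1 and 15.29 against 16.59 and 15.7, a difference of the opposite sign. Ppm1k, the mitochondrial phosphatase that reactivates the complex (ENSMUSG00000037826, chromosome 6, 57506502 to 57535426), measured 40.2 and 47.9 CPM (Sham) against 29.8 and 43.7 CPM (MI). The groups overlapped, and the log2 difference was -0.26 ± 0.23 (95% interval -0.85 to 0.33; edgeR adjusted p = 0.692), and it was -0.01 without MI replicate 1.

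The ratio of Bckdk to Ppm1k in FPKM was 2.99 and 2.15 in the Sham libraries and 3.2 and 2.32 in MI. The ranges of the groups overlapped, with the highest value in MI and the lowest in Sham, and replicates of 1 group differed by 0.48 (Sham) and 0.47 (MI) on the log2 scale against 0.11 between the group means. The sign of that group difference changed when single libraries were left out, from 0.34 without Sham replicate 1 to -0.13 without Sham replicate 2. Set against the subunit that both enzymes act on, Bckdk stood at 0.182 and 0.187 of the Bckdha level in Sham and at 0.216 and 0.193 in MI, and Ppm1k at 0.0608 and 0.0871 in Sham and 0.0675 and 0.0831 in MI. These last ratios were added after the values were seen.

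**Figure D2:**
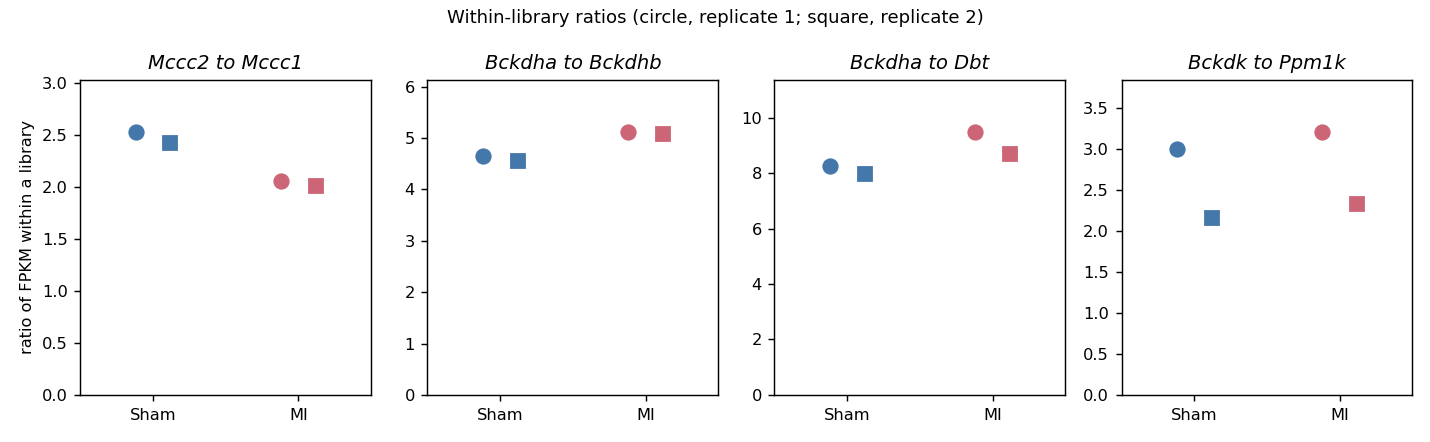
Ratios of FPKM between a pair of genes within each library (vertical axes, from 0), with Sham in blue, MI in red, replicate 1 as circles and replicate 2 as squares. The ratio of Mccc2 to Mccc1 is 2.53 and 2.43 in Sham against 2.06 and 2.01 in MI, whereas the groups overlap for Bckdk to Ppm1k, at 2.99 and 2.15 against 3.2 and 2.32.

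The leucine branch held both the smallest p and the widest spread among the 10 genes. Mccc2, the beta subunit of methylcrotonyl-CoA carboxylase (ENSMUSG00000021646, chromosome 13, 99948530 to 100015618), measured 51.9 and 49.5 CPM (Sham) against 31.6 and 37.2 CPM (MI). Both MI libraries were well below both Sham libraries, and FPKM showed the same order (14.94 and 15.8 against 11.82 and 12.4). The log2 difference was -0.56 ± 0.14 (95% interval -0.93 to -0.19; edgeR adjusted p = 0.327), and DESeq2 gave an adjusted p of 0.0697. Its partner Mccc1, the biotin-carrying alpha subunit of the same enzyme (ENSMUSG00000027709, chromosome 3, 35959312 to 36000678), measured 80.2 and 79.6 CPM (Sham) against 60.1 and 72.5 CPM (MI). The log2 difference of Mccc1 was -0.27 ± 0.14 (edgeR adjusted p = 0.524), and in FPKM its groups overlapped (5.91 and 6.5 against 5.74 and 6.18).

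The subunits of methylcrotonyl-CoA carboxylase were therefore not measured in the same proportion. Mccc2 stood at 2.53 and 2.43 times the FPKM of Mccc1 in the Sham libraries and at 2.06 and 2.01 times in MI. The log2 ratio differed by -0.29 between groups, and by 0.06 (Sham) and 0.04 (MI) in size between replicates. Leaving out any 1 library gave -0.26 to -0.32. This ratio was chosen after its values were seen and has no test.

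Ivd, isovaleryl-CoA dehydrogenase, which acts just before that carboxylase (ENSMUSG00000027332, chromosome 2, 118861954 to 118882909), measured 147.7 and 288 CPM (Sham) against 160.6 and 106.3 CPM (MI). Its highest library was 2.71 times its lowest, where the other 9 genes spanned 1.26 to 1.72 times. Sham replicate 2 stood far above the rest and MI replicate 1 lay above Sham replicate 1, so the groups overlapped. The log2 difference of -0.71 ± 0.38 (95% interval -1.70 to 0.29; edgeR adjusted p = 0.532) was the most negative of the 10 and also the least certain. It was -0.15 without Sham replicate 2, the library with adipocyte and atrial transcripts, and -1.11 without Sham replicate 1. Relative to Mccc2, Ivd was at 1.45, 2.96, 2.58 and 1.45 times the FPKM in Sham replicates 1 and 2 and MI replicates 1 and 2. No other annotated gene overlaps Ivd.

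The 5 genes nearest to Ivd in centred log2 CPM over the 4 libraries, a search added after its values were seen, were Tmem100, H2-K1, C3, Ces1d and Ifi27l2a. They lay 0.126 to 0.181 from it in root mean square, among 2479 genes with a mean of at least 10 FPKM. Each was highest in Sham replicate 2, as was Ivd, which follows from choosing them by its profile. The complement gene C3 measured 171 and 272 CPM (Sham) against 201 and 120 CPM (MI), and the carboxylesterase gene Ces1d had 54.9 and 86.7 against 49.2 and 40.7. H2-K1 belongs to the family of histocompatibility genes with similar sequences, so its value is uncertain.

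The start regions of the leucine branch genes are shown because Ivd, Mccc1 and Mccc2 share more copies of 1 motif than most promoters do. The motif CCAAT, counted on either strand, occurred 4 times for Ivd, 3 for Mccc1 and 3 for Mccc2 in the 250 bases before the RefSeq start, where 33.8% of 32817 mouse promoter windows of that length hold at least 1 copy and 2.79% hold at least 3. The 120 bases upstream of the gene start (for Mccc2, of a start 21 bases upstream of that in the deposited table) are printed 5′ to 3′ from RefSeq (GRCm38.p6), with CCAAT in capitals on either strand, so that a copy on the other strand reads ATTGG. For Ivd they are chr2:118861834-118861953 (plus strand), for Mccc1 chr3:36000679-36000798 (minus strand), and for Mccc2 chr13:100015640-100015759 (minus strand).
Ivd: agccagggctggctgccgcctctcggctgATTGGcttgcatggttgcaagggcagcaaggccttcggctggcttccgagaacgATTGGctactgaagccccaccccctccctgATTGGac
Mccc1: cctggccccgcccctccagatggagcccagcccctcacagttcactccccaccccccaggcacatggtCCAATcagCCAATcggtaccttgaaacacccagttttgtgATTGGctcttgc
Mccc2: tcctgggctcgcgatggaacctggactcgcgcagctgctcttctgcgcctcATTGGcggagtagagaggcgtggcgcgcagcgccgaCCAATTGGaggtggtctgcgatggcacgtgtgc

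The fourth copy of Ivd lies outside the printed bases. In Mccc2 a pair of the copies overlaps, as CCAATTGG. Of the 9 members with a RefSeq window, 6 held CCAAT (Bckdhb, Bckdk and Ppm1k besides these 3), Dbt having no entry. GGGCGG was in 4 of the 9 and in 32.7% of all windows, and CACGTG was in Mccc2 alone and in 6.02%. The estrogen-related receptor motif TNAAGGTCA was in 0 of the 9, against 1.14% of all windows, and the palindromic NRF1 motif was also in 0, against 4.97%. Both strands were searched, and a match is a description of these letters and not a binding site.

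Hibch, the hydrolase that frees hydroxyisobutyrate from CoA in the valine branch (ENSMUSG00000041426, chromosome 1, 52844929 to 52920986), measured 66.7 and 64.8 CPM (Sham) against 50.1 and 58 CPM (MI). The Sham libraries were nearly level, and both MI libraries lay below them. The log2 difference was -0.28 ± 0.13 (95% interval -0.63 to 0.06; edgeR adjusted p = 0.489). In FPKM the order broke, with 8.87 and 9.56 in Sham against 8.65 and 8.94 in MI.

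Ordered by mean FPKM over the 4 libraries, the genes ran Bckdha (82.1), Ivd (29.3), Bcat2 (18.2), Bckdhb (17), Bckdk (15.9), Mccc2 (13.7), Dbt (9.61), Hibch (9.01), Ppm1k (6.12) and Mccc1 (6.08). Each neighbour from Ivd to Mccc2 overlapped with the next in its range over libraries, as did Dbt with Hibch and Ppm1k with Mccc1. Bckdha stood clear of every other member in every library. The profile over the libraries was similar for most members. Hibch and Mccc1 lay nearest to the mean centred profile (0.05 and 0.06 log2 units in root mean square) and Ivd farthest (0.47), with Bcat2 and Ppm1k at 0.18 and 0.17. In CPM MI replicate 1 was the lowest library for 9 of the 10 genes, the exception being Ivd, and in FPKM for 7, the exceptions being Ivd, Bcat2 and Bckdk.

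The 5 other genes whose profile came nearest to the mean of the members, among the same 2479, were Sucla2, Cnbp, Ndufs1, Opa1 and Gm13690, at 0.01 to 0.03 log2 units. Their lower values in MI follow from choosing them by that profile. Sucla2, a subunit of succinyl-CoA synthetase, measured 409 and 404 CPM (Sham) against 294 and 327 CPM (MI). Ndufs1, a subunit of respiratory complex I, had 533 and 507 against 377 and 432, and Opa1, which acts in fusion of mitochondrial inner membranes, had 126 and 127 against 89.7 and 104. Cnbp, a nucleic acid binding protein, had 196 and 193 against 142 and 161. Gm13690 is annotated as a processed pseudogene, so its reads may be shared with its parent gene and its value is uncertain.

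**Figure D3:**
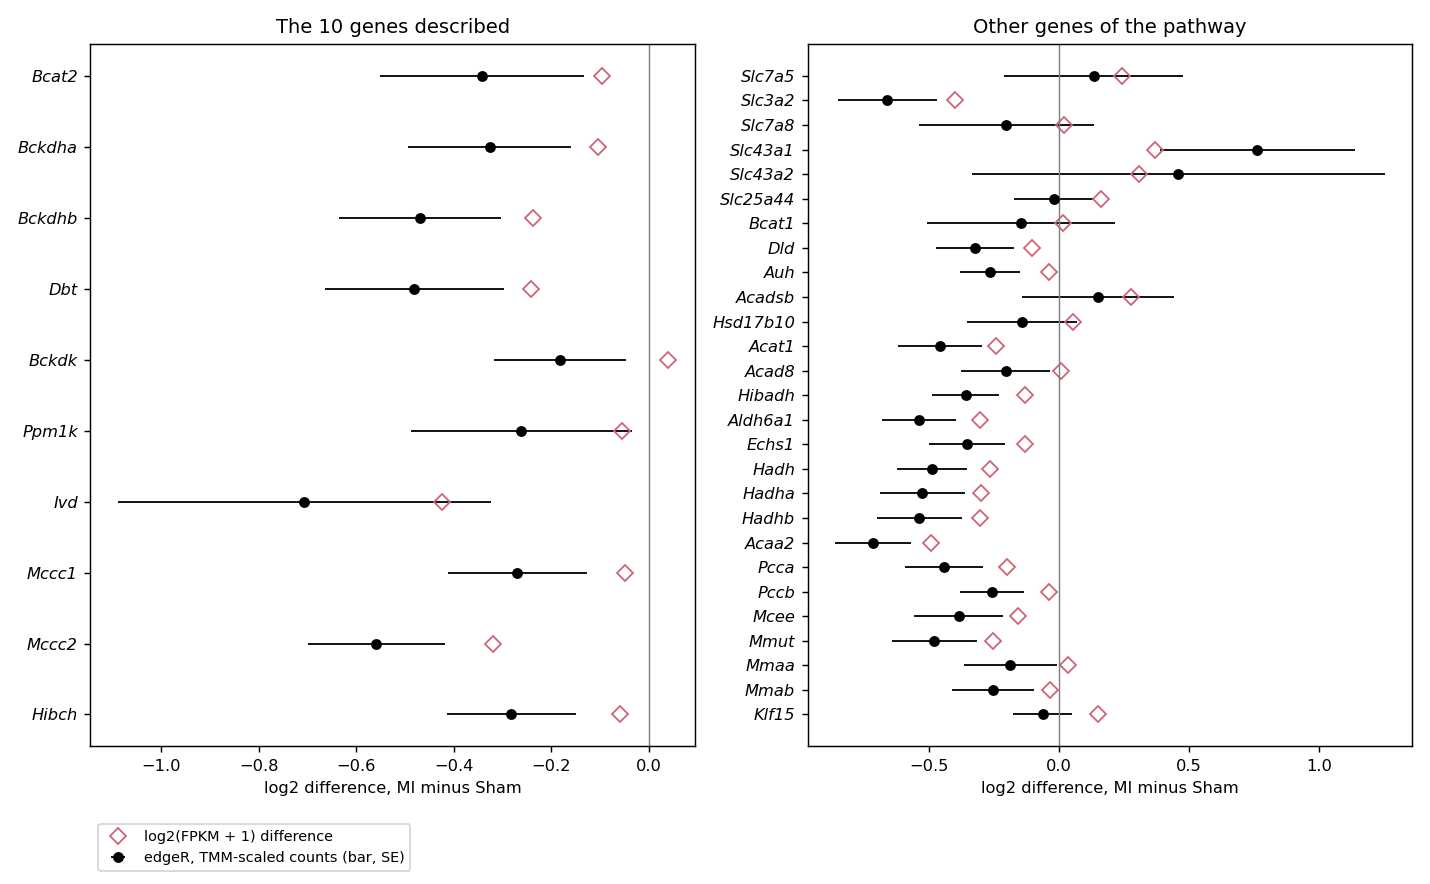
Log2 differences (MI minus Sham, horizontal axes) of the 10 genes on the left and of 27 other genes of the pathway on the right, as edgeR estimates with their standard error (black) and as differences of log2(FPKM + 1) (open diamonds). All 10 black points on the left and 23 of 27 on the right lie below 0, and the diamonds lie nearer to 0 for most genes.

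Of 28 other genes of the pathway, from amino acid transport to the use of propionyl-CoA, 24 had negative differences, with a median of -0.26 (-0.04 on log2(FPKM + 1), with 16 negative). None passed an adjusted p in edgeR. At an unadjusted p under 0.05, 10 were lower and 0 higher (4.51% and 7.12% of all genes), and 2 of them, Acaa2 and Hadh, were called by DESeq2, where 1.49% of genes were called lower. The 10 became 3 without Sham replicate 1, where 6.1% of all genes were lower. They became 1 without MI replicate 1 and 4 without MI replicate 2, where the share over all genes was also smaller, at 1.95% and 2.06%. By the table's own KEGG annotation for degradation of these amino acids, 47 of 55 genes were tested, and 41 were negative (49.8% of all genes). At an unadjusted p under 0.05 in edgeR, 14 were lower and 0 higher (4.51% and 7.12% of all genes). That annotation holds 8 of the 10 members, all but Bckdk and Ppm1k, and most of the 28 other pathway genes, so it is not a separate list. Outside the members, 39 of its genes were tested, 33 were negative, and 11 were lower and 0 higher at that threshold.

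Of the role groups of the other pathway genes, the steps shared with fatty acid oxidation had the most negative median (-0.53). All 5 genes were negative (49.8% of all genes), and 4 were lower at an unadjusted p under 0.05 in edgeR (4.51% of all genes). These 4, Acaa2, Hadh, Hadha and Hadhb, are among the 10 lower genes counted above and include both genes called by DESeq2. They also belong to the full list of 16 fatty acid oxidation enzymes, so their values are not specific to breakdown of branched-chain amino acids. Acaa2, a mitochondrial thiolase, had -0.71 ± 0.15 (edgeR adjusted p = 0.29; DESeq2 adjusted p = 0.0014), from 378 and 376.4 FPKM in Sham to 268.9 and 267.1 in MI. Hadh, the hydroxyacyl-CoA dehydrogenase, had -0.49 ± 0.14 (DESeq2 adjusted p = 0.0468). Hadha and Hadhb, the subunits of the trifunctional protein, had -0.53 ± 0.16 and -0.54 ± 0.16.

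In the valine branch Aldh6a1, methylmalonate semialdehyde dehydrogenase, had -0.54 ± 0.14 (edgeR adjusted p = 0.33), with 25.62 and 24.92 FPKM in Sham against 20.34 and 20.26 in MI. Hibadh, the dehydrogenase that follows Hibch, had -0.36 ± 0.13 (edgeR adjusted p = 0.404). In the isoleucine branch Acat1, the thiolase of its last step, had -0.46 ± 0.16 (edgeR adjusted p = 0.406).

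All 6 genes of propionyl-CoA use were negative (median -0.32). Pcca, a subunit of propionyl-CoA carboxylase, had -0.44 ± 0.15 (edgeR adjusted p = 0.392), and Mmut, methylmalonyl-CoA mutase, had -0.48 ± 0.16 (edgeR adjusted p = 0.395). Mcee, the epimerase between them and the most abundant of the group, had -0.38 ± 0.17 (edgeR adjusted p = 0.471).

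Transporters were split in direction, with 3 of 6 negative and a median of 0.06. At an unadjusted p under 0.05 in edgeR, 1 was lower and 0 higher (4.51% and 7.12% of all genes). The positive ones were at mean levels of 0.60 to 1.95 FPKM, a range that also held a negative one. Slc3a2, the heavy chain that pairs with large neutral amino acid transporters, had 12.18 and 18.14 FPKM in Sham and 12.52 and 9.74 in MI, with a log2 difference of -0.66 ± 0.19 (edgeR adjusted p = 0.344). Its separation in CPM did not hold in FPKM. Klf15, a transcription factor known to promote expression of these enzymes, had -0.06 ± 0.11 (edgeR adjusted p = 0.861), and 0.15 on log2(FPKM + 1).

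**Figure D4:**
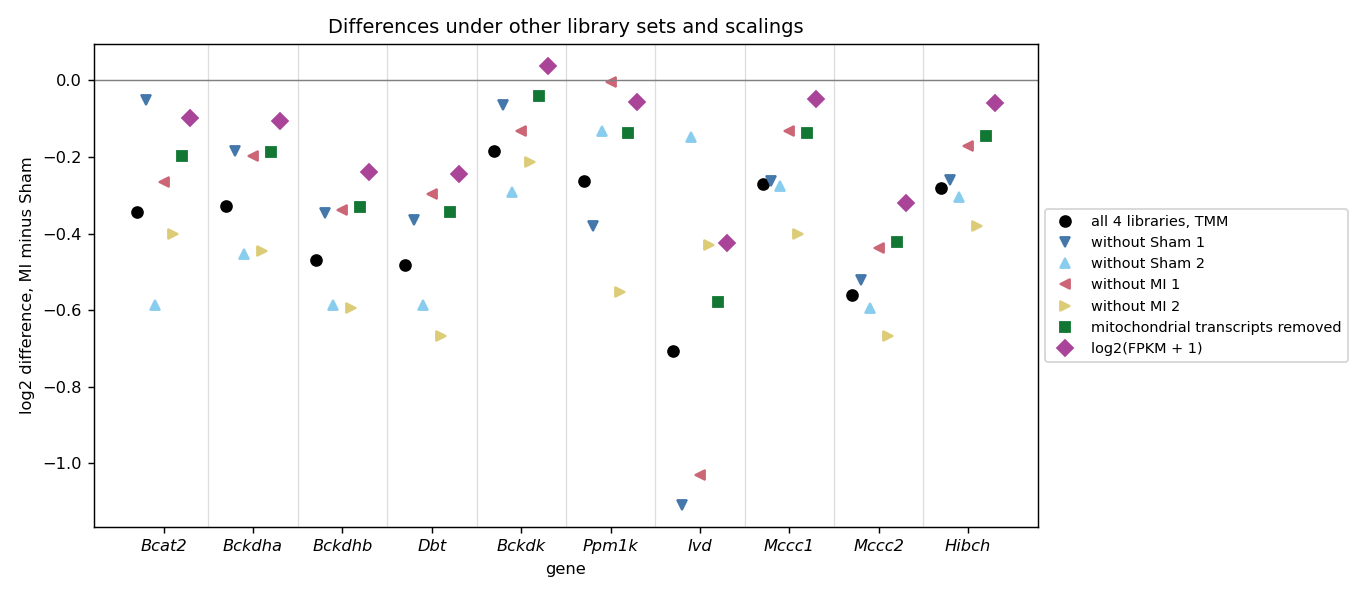
Log2 difference (MI minus Sham, vertical axis) of each of the 10 genes with all libraries and with 1 library left out. Also drawn are values with mitochondrial transcripts removed (scaled to the remaining total, without TMM) and on log2(FPKM + 1). All values but that of Bckdk on log2(FPKM + 1) are below 0, and Ivd has the widest range.

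Side by side with other mitochondrial fuel genes, the medians were -0.34 for the 10 genes, -0.49 for 12 fatty acid oxidation genes outside the 28 other pathway genes (Acadm and Acads among them carry the KEGG annotation) and -0.28 for 17 citrate cycle genes. The 10 cardiomyocyte markers had a median of -0.26. In FPKM the geometric mean of the 10 genes was 15 and 16.2 in Sham and 13.8 and 13.9 in MI. Per 100 units of the cardiomyocyte marker mean it was 1.55 and 1.7 in Sham against 1.53 and 1.47 in MI, without overlap. The gap between groups was smaller than that between the Sham libraries. Ivd, at 21.63 and 46.83 FPKM in Sham, differed most between those libraries and enters this mean. Per 100 units of the fatty acid oxidation mean the 10 genes were at 13.7 and 16.1 in Sham and 15.6 and 15.9 in MI, which overlap. Per 100 units of the citrate cycle mean they were at 12.2 and 13.7 against 11.8 and 11.9. The differences between these lists were not tested.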

How the data were processed

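Oligo(dT)-selected RNA was sequenced as paired reads with a kit that marks strand, according to the labels. The deposited table holds, for each library, estimated counts as whole numbers and FPKM, both computed by the authors (column names per the file headers). Tools listed in the submitters' processing notes, without role or order, are StringTie 1.3.4d, HISAT2 2.0.4, UMI-tools and cutadapt 1.9. No genome build is given in the sources used here. GENCODE M21 (GRCm38) holds 99.5% of the gene identifiers, 93.8% of them with identical coordinates, including 8 of the 10 members (Ppm1k and Mccc2 differ by 42 and 21 bases).

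Counts pile up at multiples of 4 (1158 genes at 4 and 284 at 3 in Sham replicate 1), so 4 counts were read as about 1 fragment. The filter was filterByExpr with a minimum count of 10 and a minimum total of 15. The genes left were scaled by TMM and tested with edgeR 4.0.16 (R 4.3.3), group as the only term, 2-sided, Benjamini-Hochberg over all 18475 genes. Alternatives were DESeq2 1.42.0, limma 3.58.1 on log2(FPKM + 1) or log2(FPKM + 0.1), RLE scaling, no filter, counts divided by 4, each library left out, and a replicate block. A further one was removal of mitochondrial transcripts, with scaling to the remaining total and no TMM. No column lacked a labelled sample. Errors are SE of the fitted log2 difference (n = 2 libraries a group), worked back from the edgeR test statistic. Intervals are 95% and built from that SE, so they restate the edgeR p-values.

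Nothing states that the libraries come from separate animals, so p-values measure the spread between libraries, which may be technical. On simulated counts (17765 genes) edgeR called 71% of genes changed by 2 and 98% of those changed by 4 on the log2 scale. The counts were drawn from a fitted count model, and only well-counted genes were changed, by sizes well above the differences of the members. In the deposited counts edgeR called 0% of the 18475 genes, with a smallest adjusted p of 0.185, so these shares do not carry over to them. The members and gene lists were chosen with earlier results of these data known. Named were all 10 members, in each role group of the other pathway genes the most abundant and those with an unadjusted p under 0.05, and the 5 genes of nearest profile. One gene that this rule names is counted among the 28 other pathway genes but is not reported here by name. Of the marker lists, the 5 endothelial, 5 macrophage and 4 hepatocyte markers summed to 211.8, 121.9 and 12.65 FPKM in Sham replicate 1, 240.7, 147.9 and 1.91 in Sham replicate 2, 321.6, 319.3 and 22.29 in MI replicate 1 and 279.3, 160.8 and 17.1 in MI replicate 2.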

Additional observations from a re-analysis of the deposited data

How the results depend on the processing

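No alternative called any of the 10 genes at an adjusted p under 0.05. The count of members lower at an unadjusted p (3) was 1 with mitochondrial transcripts removed, 1 in limma on log2(FPKM + 1), 1 on log2(FPKM + 0.1) and 1 with the replicate block, where 2.34%, 1.82%, 1.86% and 2.99% of all genes were lower, and 0 to 4 with single libraries left out. The median of the members (-0.34) was -0.19 without mitochondrial transcripts, -0.10 on log2(FPKM + 1) and -0.10 on log2(FPKM + 0.1), and -0.44 to -0.23 with single libraries left out. The number of members with both MI libraries below both Sham libraries (7) was 4 in deposited FPKM, a scaling compared after seeing the data. For the other pathway genes the count of 10 was 6 without mitochondrial transcripts, 5 on log2(FPKM + 1), 5 on log2(FPKM + 0.1), 4 with the replicate block and 1 to 10 with single libraries left out. Their median (-0.26) was -0.125, -0.038 and -0.042 in the first 3 of these and -0.39 to -0.27 with single libraries left out. On log2(FPKM + 1) and log2(FPKM + 0.1) the sign turned for Bckdk (0.038 and 0.040), Bcat1 (0.017 and 0.062) and Klf15 (0.150 and 0.157), and Klf15 was at 0.074 without mitochondrial transcripts. With single libraries left out, Bcat1 ranged from -0.430 (without MI replicate 1) to 0.108 (without MI replicate 2), with 0.098 without Sham replicate 2. H2-K1 ranged from -1.036 to 0.182 and Ifi27l2a from -0.763 to 0.235, negative without Sham replicate 1 and positive without Sham replicate 2. The setting without mitochondrial transcripts also dropped TMM, so the effects of these changes were not separated. The cause of the difference between scales was not tested. Replicate numbers are shared by the groups, but deviations of same-numbered libraries correlated at -0.04 over genes, so the numbers were treated as names. With 2 libraries a group, the 95% interval of the log2 difference included 0 for 7 of the 10 genes. These are the 7 without an unadjusted p under 0.05 in edgeR, restated.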
